A study of Mus musculus with 34 samples.

Results

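Gene expression in 5 mouse livers labelled Irs1 KO, in which a guide RNA directed Cas9 to Irs1, was compared with that in 6 livers given a control guide. The controls comprised 4 livers given a guide against GFP (sgGFP) and 2 given a guide against LacZ (sgLacZ), genes that mice do not carry. Every gene with at least 1 FPKM (counted fragments scaled by transcript length and by library depth) in at least 5 of these 11 livers was included, which kept 16818 of the 35976 genes in the deposited table. Of these, 3 met the filter through the 5 Irs1 KO livers alone and 48 had no Irs1 KO liver at 1 FPKM, so that for them a difference was built into the filter. All 11 mice were C57BL/6 and homozygous both for TetO-Cas9, a Cas9 gene under a tetracycline-responsive promoter, and for Rosa-rtTA, which places the activator of that promoter at the broadly active Rosa locus. All had received an adeno-associated virus (AAV) with a guide RNA and had eaten a Western diet, rich in fat and sugar, for 3 months. The controls thus share the Cas9 genes, the virus with a guide and the diet. A further 23 livers of the same genotype and diet, given guides against Bcl6 (5 livers), Smyd2 (6), Srebf1 (5) or Tbx3 (7), served as a second reference. Sex, age, viral dose, guide sequence, inducer and the share of edited liver cells are not stated in the labels used here. The labels number the livers of each group, and each numbered liver was taken as 1 mouse. P-values measure the spread between these samples, which may in part be technical.

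Irs1 is an adaptor protein of the insulin receptor. After insulin binds, the receptor phosphorylates Irs1 and its relative Irs2, which recruit phosphoinositide 3-kinase and so activate the kinase Akt. In hepatocytes Akt keeps the transcription factor FoxO1 out of the nucleus, where it would otherwise drive genes of glucose production, and favours the processing of SREBP-1c, which drives genes of fatty acid synthesis. Insulin also promotes glycogen storage, and in liver that stores much fat these arms of its action can come apart.

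The 11 libraries were shallow. From the steps between low values, a library held an estimated 2300000 to 2730000 counted fragments, so that 1 fragment in a transcript of 1 kb was worth 0.366 to 0.435 FPKM, and low genes have wide counting errors. All livers expressed hepatocyte markers (summed FPKM of 6 markers, 67680 to 103500 in Irs1 KO and 62140 to 84090 in controls). The 4 adipocyte markers summed to 0 FPKM in Irs1 KO and to 0 to 4.9 in controls, with Adipoq and Lep at 0 in every liver. The 4 acinar pancreas markers summed to 3.338 to 7.525 FPKM in Irs1 KO and to 3.207 to 15.9 in controls, with Cpa1 and Pnlip at 0 in every liver. Among the controls, sgGFP replicates 1 and 3 stood apart. On the first principal component of log2(FPKM + 1), which held 29.6% of the variance, they lay at 61.1 and 79.5, the other 4 controls at 8.78 to 25.4 and the Irs1 KO livers at -52.9 to -29.1. Many list counts that depend on these 2 livers are given below with and without them. Counts of gene families were made with all 6 controls only. Between sgLacZ and sgGFP livers 2 genes passed the test (0.0119% of genes, limma, against 1178 at an unadjusted p under 0.05), the ribosomal protein genes Mrpl14 and Rpl36al, both higher with sgLacZ. Mrpl14 and Rpl36al did not pass between Irs1 KO and controls (limma adjusted p = 0.216 and 1).

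With Irs1 targeted, more genes fell than rose. Of 16818 genes, 613 were higher (3.64%) and 1447 lower (8.6%) than in controls (limma, adjusted p below 0.05). These percentages are the background against which each gene group below is read. Means differed at least 2-fold for 189 of the higher and 754 of the lower genes, and at least 4-fold for 65 and 229. Without sgGFP replicates 1 and 3, 354 were higher and 637 lower. Most called genes lay on the Irs1 KO side of the control mean in the other knockouts too. Of the 613 higher genes, 380, 557, 566 and 547 did so in Bcl6, Smyd2, Srebf1 and Tbx3 KO. Of the 1447 lower genes, 1191, 1237, 1347 and 1362 did so in that order. The same 6 controls enter both differences, so the sides are not independent. For 547 to 606 of the higher and 1371 to 1442 of the lower genes, the Irs1 KO mean lay beyond that of the knockout compared. Calling picks genes with extreme Irs1 KO means, which favours this outcome in advance. It was not counted over all genes, so no conclusion is drawn from it. All Irs1 KO livers lay above all controls for 358 of the genes called higher, and below all controls for 833 of those called lower. Over all 16818 genes, called or not, the groups were without overlap for 423 higher (2.52%) and 995 lower genes (5.92%). The median log2 change over all genes was -0.116, and the median SE was 0.233. Changes below are on the log2(FPKM + 1) scale, Irs1 KO minus control, which understates the change of low genes.

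Part of that imbalance moved with the scaling of the libraries. Higher genes made up 29.8% of the calls as deposited, 44.3% after median scaling and 49% after quantile normalization, which moved the median change of all genes by 0.0833 and 0.185. Of 13146 protein-coding genes 503 rose and 1274 fell, and of 2130 long noncoding RNAs 66 rose and 79 fell. The plot of change against level shows both arms.

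**Figure D1:**
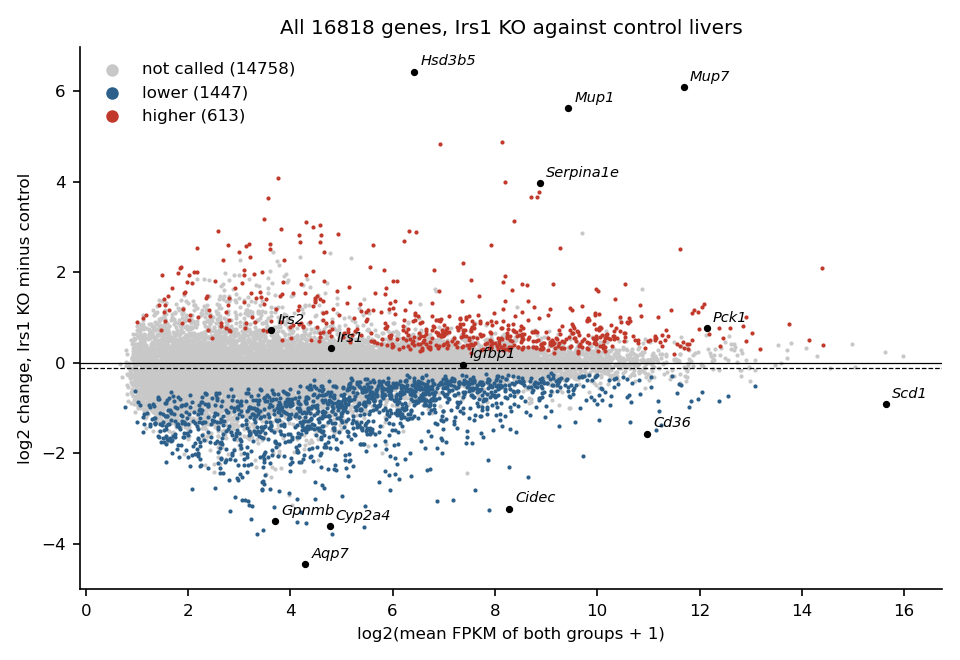
Log2 change (Irs1 KO minus control, vertical axis) against mean level (log2(FPKM + 1), horizontal axis) for the 16818 genes, with genes past the threshold coloured by direction and 14 genes named. The solid line marks 0 and the dashed line the median change of -0.116; genes called lower (1447) outnumber those called higher (613).

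The mRNA of the targeted gene was not reduced. Irs1 (chromosome 1, 82233105 to 82291439, RefSeq GRCm38.p6) stood at 35.8, 31, 28.9, 27.9 and 25.4 FPKM in the 5 Irs1 KO livers and at 20.2 to 27.6 (median 22.9) in the 6 controls. The 4 sgGFP livers were under every Irs1 KO liver, while the 2 sgLacZ livers lay within the Irs1 KO range, so the groups overlapped. Means were 29.8 ± 3.92 against 23.5 ± 2.92 FPKM (SD, n = 5 and 6; log2 change 0.33, SE 0.15, limma adjusted p = 0.165). A gene cut by Cas9 can still be transcribed, so this mRNA level does not check the label. Of its nearest measured neighbours, the ubiquitin ligase scaffold Cul3, the rhomboid protease Rhbdd1 and the collagen gene Col4a4 did not pass the test (log2 changes 0.12, 0.24 and -0.49). The neighbour Dock10, a guanine nucleotide exchange factor, fell (168 ± 47.6 against 319 ± 88.8 FPKM, log2 change -0.92, limma adjusted p = 0.0174). Its call ended without sgGFP replicate 3 (adjusted p = 0.0505), without sgGFP replicates 1 and 3 (0.136) and without Irs1 KO replicate 1 (0.0667).

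Few genes of the insulin receptor pathway passed the test. Of 49 measured genes from receptor to mTOR, 2 rose and 2 fell, and the median change was -0.0419. That is a share near the background, and 1 rose and 1 fell without sgGFP replicates 1 and 3. The receptor gene Insr was at 379, 470.1, 453, 398 and 491 FPKM in Irs1 KO and at 399 to 445 (median 439.8) in controls, and the groups overlapped (log2 change 0.02, SE 0.09). The kinase genes Akt1 and Akt2 and the transcription factor gene Foxo1 did not pass either, with log2 changes of 0.20, 0.22 and 0.26 (limma adjusted p = 0.42, 0.211 and 0.294).

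Irs2, which encodes the second hepatic substrate of the receptor, rose. It stood at 19.3, 16, 10.02, 12.5 and 13.3 FPKM in Irs1 KO against 5.83 to 13.5 (median 6.96) in controls. Irs1 KO replicates 1 and 2 lay above all controls, and replicates 3, 4 and 5 lay within the control range. The change was 0.73 (SE 0.21, limma adjusted p = 0.0254). The call ended with sgGFP livers alone as the control (adjusted p = 0.113), in a fit of the 2 groups alone (0.0878), and when Irs1 KO replicate 1 or 2, sgGFP replicate 2 or sgLacZ replicate 2 was left out (0.0527 to 0.0853).

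Deptor and Mtor also passed in this pathway. Deptor, an inhibitor that binds mTOR, rose (326 ± 19 against 251 ± 44.4 FPKM, log2 change 0.39, limma adjusted p = 0.0325). Mtor, the kinase itself, fell (109.9 ± 4.82 against 142 ± 26.9 FPKM, log2 change -0.35, adjusted p = 0.0371). The calls of Deptor and Mtor were each lost when any of several single livers was left out, and that of Mtor also under median scaling (adjusted p = 0.121). With 1 liver left out, 0 to 3 pathway genes were higher and 1 or 2 lower. The higher count moved by over 1.5 times without Irs1 KO replicates 1, 2 or 5, any sgGFP replicate or sgLacZ replicate 2, and the lower count without any Irs1 KO replicate, sgGFP replicate 2 or sgLacZ replicate 2.

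Genes that FoxO1 and its partners are known to drive were split. Of 24 such genes and genes of gluconeogenesis 7 rose and 3 fell, with a median change of 0.0774, and 5 and 3 did so without sgGFP replicates 1 and 3. The higher count was 3 to 6 when 1 liver was left out, and moved by over 1.5 times without Irs1 KO replicate 1 or 2 or sgGFP replicate 2. Pck1, which encodes the cytosolic phosphoenolpyruvate carboxykinase of gluconeogenesis, rose (5623 ± 800.1 against 3398 ± 828 FPKM, log2 change 0.76), as did its coactivator gene Ppargc1a (399 ± 92.7 against 254 ± 96.7 FPKM, log2 change 0.71). G6pc, the glucose-6-phosphatase that releases free glucose, was at 718 ± 198 against 478 ± 196 FPKM and did not pass (limma adjusted p = 0.295). Klf15, a transcription factor of amino acid use and gluconeogenesis, was at 1255, 908, 783, 944 and 803 FPKM against 434 to 576 (median 535), with all 5 Irs1 KO livers above all controls (log2 change 0.81, SE 0.17, limma adjusted p = 0.00272). Got1, the cytosolic aspartate aminotransferase, rose without overlap as well (274 ± 81.4 against 132 ± 41.9 FPKM, log2 change 1.06). Pdk4, the kinase that shuts off pyruvate dehydrogenase and a known FoxO1 target, went the other way, at 8.82, 3.87, 4.98, 7.23 and 7.16 FPKM against 16.1 to 27.9 (median 19.5) (log2 change -1.59, SE 0.39, limma adjusted p = 0.00796). Pck2, the mitochondrial carboxykinase, fell by 0.93.

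Igfbp1, a binding protein of insulin-like growth factors whose promoter holds the best known insulin response sequence, did not pass. It was at 169.6, 142, 116, 129.9 and 106 FPKM in Irs1 KO and at 27.3 to 573 (median 144) in controls, so the controls spread more widely than the Irs1 KO livers and enclosed all 5 (log2 change -0.04, limma adjusted p = 0.979). The 8 letters CAAAACAA of that sequence, searched on both strands from 250 bases before to 50 after each RefSeq transcription start (GRCm38.p6), occurred in 825 of 32851 promoters (2.51%). Of 18 FoxO and gluconeogenesis genes found in the promoter table, 3 held it, namely Igfbp1, Irs2 and Pck2. One of these rose (Irs2), 1 fell (Pck2) and 1 did not pass. Over all 294 measured genes with the letters, 20 rose and 26 fell, with a median change of -0.04. The 250 bases before the start of Igfbp1 (chr11:7197537-7197786, plus strand) and Irs2 (chr8:11008930-11009179, minus strand) are shown because the first carries the classical element and the second encodes the substrate whose mRNA was higher. Capitals mark the match, forward and 108 to 101 bases before the start in Igfbp1, and reversed and 38 to 31 bases before it in Irs2.
Igfbp1: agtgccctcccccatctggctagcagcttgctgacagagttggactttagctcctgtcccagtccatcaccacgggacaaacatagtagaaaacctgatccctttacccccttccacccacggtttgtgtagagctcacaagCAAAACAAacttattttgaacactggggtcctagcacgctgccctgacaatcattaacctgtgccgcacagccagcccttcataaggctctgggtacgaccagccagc
Irs2: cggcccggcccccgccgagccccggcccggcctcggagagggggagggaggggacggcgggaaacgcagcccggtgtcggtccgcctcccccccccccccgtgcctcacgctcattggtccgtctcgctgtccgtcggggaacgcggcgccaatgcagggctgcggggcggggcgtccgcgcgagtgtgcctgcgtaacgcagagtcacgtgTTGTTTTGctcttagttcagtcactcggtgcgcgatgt
A match of letters is a description and not a tested binding site.

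Glycolytic genes went both ways. Of 25, 3 rose and 6 fell, and 1 and 5 did so without sgGFP replicates 1 and 3. Their median change of -0.147 was close to the -0.116 over all genes, among which falls also outnumbered rises. Hk2, a hexokinase that adult hepatocytes hardly express, was at 1.6, 2.7, 1.96, 2.6 and 2.83 FPKM against 10.9 to 28.3 (median 17.9), the highest Irs1 KO liver being well under the lowest control (log2 change -2.49, SE 0.35, limma adjusted p = 3.09e-05). The enolase gene Eno1 and the muscle-type pyruvate kinase gene Pkm fell by 0.58 and 1.03, and the hexokinase gene Hk3, typical of myeloid cells, fell by 0.89. In the opposite direction, the carbohydrate sensor Mlxipl (ChREBP) rose in every liver above every control (2886, 3064, 3302, 2983 and 2759 FPKM against 1720.5 to 2184 (median 1965); log2 change 0.62, SE 0.13, limma adjusted p = 0.00253). The fructose transporter Slc2a5 rose by 1.79 and the bifunctional enzyme Pfkfb3 by 0.81. The liver pyruvate kinase Pklr, itself a ChREBP target, was at 1675 ± 293 against 1628 ± 472 FPKM and did not pass. Lower genes numbered 3 to 5 with 1 liver left out and moved by over 1.5 times without any Irs1 KO replicate, sgGFP replicate 1 or sgLacZ replicate 1, and the higher count was 1 without sgGFP replicate 3.

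Among 17 genes of glycogen metabolism 3 fell, among them the primer protein Gyg (8.16 ± 5.78 against 24.7 ± 10.04 FPKM) and the branching enzyme Gbe1 (173 ± 6.69 against 303 ± 77.3 FPKM). Gbe1 was below every control in all 5 livers, while the groups overlapped for Gyg. The liver glycogen synthase Gys2 and the phosphorylase Pygl, which make and break the polymer, did not pass (log2 changes 0.24 and 0.28).

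Genes that coat, fill and empty lipid droplets were among those that fell most often. Of 25 measured genes 10 fell and none rose, with a median change of -0.618. The count was 10 without sgGFP replicates 1 and 3, and 9 to 12 with any 1 liver left out. Cidec, which fuses droplets into larger ones, was at 59.8, 56.8, 46.8, 112 and 33.4 FPKM against 338 to 745 (median 561). Its highest Irs1 KO liver, replicate 4, lay under every control (8.98-fold lower mean, log2 change -3.22, SE 0.43, limma adjusted p = 1.77e-05). Plin2, the main coat protein of liver droplets, was at 1148, 963, 1155, 1355 and 1090.0 against 1704 to 2482 (median 2097) FPKM, again without overlap (log2 change -0.87, SE 0.15, limma adjusted p = 0.000293). Pparg, a nuclear receptor that drives several of these genes, fell from 194 to 467 (median 316) to 59.6 to 174 FPKM (log2 change -1.55, adjusted p = 0.00018). Fat-releasing enzymes fell too, with Lipa, the acid lipase of lysosomes, at 339 ± 43.6 against 593 ± 38.3 FPKM, Pnpla2, the first lipase of triglyceride, at 255 ± 33.5 against 399 ± 76.1 FPKM, and its coactivator Abhd5 lower by 0.62 on the log2 scale. Aqp7, a glycerol channel, was at 0 to 0.293 FPKM in the Irs1 KO livers, at most a few fragments, and at 5.25 to 99 (median 26.4) FPKM in controls (limma adjusted p = 0.000373). Plin5, Lipe and Mgll, which act at the droplet as well, did not pass (log2 changes -0.30, -0.26 and -0.33).

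Of 17 genes of triglyceride assembly 4 fell and none rose, the same counts as without sgGFP replicates 1 and 3. Agpat9 (Gpat3), an acyltransferase of glycerol-3-phosphate, was at 67, 46, 37.6, 81.5 and 69.3 FPKM against 167 to 207 (median 184) (log2 change -1.66, SE 0.21, limma adjusted p = 1.02e-05). No Irs1 KO liver came near the control range. The glycerol kinase Gk, the mitochondrial acyltransferase Gpam and the monoacylglycerol acyltransferase Mogat1 fell by 0.68, 0.94 and 2.51, and the call of Gpam ended without Irs1 KO replicate 3, sgGFP replicate 2 or sgLacZ replicate 2 (adjusted p = 0.0524 to 0.0553). The last-step enzymes Dgat1 and Dgat2 did not pass, with changes of -0.02 and 0.15.

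In fatty acid synthesis 9 of 24 genes fell and 1 rose (Mlxipl, above), with a median change of -0.537. The counts were the same without sgGFP replicates 1 and 3. Scd1, the stearoyl-CoA desaturase, was at 37281, 34851, 31465, 39612 and 31573 FPKM against 48521 to 88565 (median 65453), all 5 livers under all controls (log2 change -0.92, SE 0.18, limma adjusted p = 0.00152). The acetyl-CoA carboxylases Acaca and Acacb fell by 0.63 and 0.96, the malic enzyme Me1 by 1.01, the elongase Elovl5 by 0.84 and the reductase Hsd17b12 by 0.75. Fasn, the synthase itself, was at 621, 428, 344, 382 and 268 FPKM against 436 to 1306 (median 674). Its groups overlapped and it did not pass (log2 change -0.93, SE 0.31, limma adjusted p = 0.0524). Srebf1, which encodes SREBP-1, was not lower at the mRNA level (1747 ± 457 against 1499 ± 447 FPKM, log2 change 0.23, adjusted p = 0.625).

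Genes of fatty acid uptake and oxidation fell too. In the uptake list 6 of 19 genes fell and 1 rose, and 4 fell and none rose without sgGFP replicates 1 and 3. Cd36, a fatty acid transporter, was at 630.0, 781, 967, 1406 and 1463 FPKM against 2237 to 3270.1 (median 3082), with a gap between the groups (log2 change -1.56, SE 0.18, limma adjusted p = 2.82e-06), while the lipoprotein receptor Vldlr was at 5.78 to 18.3 against 34.4 to 48.8 FPKM (log2 change -1.88). The acyl-CoA synthetases Acsl4 and Acsl5 fell by 0.60 and 0.74. The 1 gene that rose was Slc27a5, a bile acid and fatty acid ligase (0.59), a call that was lost without any Irs1 KO replicate, sgGFP replicate 1 or 3 or sgLacZ replicate 1. Of 38 genes of fatty acid oxidation, many of them targets of PPAR-alpha, 10 fell and none rose (median -0.282, 8 to 13 with 1 liver left out). Crat, the carnitine acetyltransferase, was at 144, 102, 115, 172 and 122 FPKM against 245 to 357 (median 269) (log2 change -1.17, SE 0.16, limma adjusted p = 2.76e-05). Acot2 and Vnn1 fell without overlap (log2 changes -1.94 and -1.26), as did Pex11a, which divides peroxisomes (-1.26), and the fasting hormone gene Fgf21 fell by 1.19, a call lost without Irs1 KO replicate 1, 2 or 5, sgGFP replicate 2 or 3 or sgLacZ replicate 2. The receptor Ppara and the rate-setting transferase Cpt1a did not pass (0.07 and -0.24).

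Cholesterol synthesis showed few single calls against controls. Of 27 genes 4 fell and 1 rose, with a median of -0.434, and without sgGFP replicates 1 and 3 the counts were 3 and 0. Hmgcs1, the first committed synthase, was at 171, 168, 170.0, 194 and 187 FPKM against 308 to 577 (median 397), without overlap (log2 change -1.17, SE 0.29, limma adjusted p = 0.00965). Fdps, the synthase of farnesyl diphosphate, fell by 1.17, a call that ended without Irs1 KO replicate 1 or 2, sgGFP replicate 1 or sgLacZ replicate 2 (adjusted p = 0.0519 to 0.0576) and without sgGFP replicates 1 and 3 (0.0622). Ebp rose by 0.39, a call lost without Irs1 KO replicates 1 to 4, sgGFP replicate 1 or 3 or sgLacZ replicate 1. Against the other 4 knockouts 12 of these genes were lower and none higher, and 10 against Smyd2, Srebf1 and Tbx3 KO. For Hmgcs1 the Srebf1 KO mean was 1362 FPKM, against 351, 309.7 and 310.1 in Bcl6, Smyd2 and Tbx3 KO.

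Lipoprotein genes went both ways. Of 32, 11 rose and 5 fell, and 8 and 5 without sgGFP replicates 1 and 3. Apoa4, an apolipoprotein that liver makes when loaded with fat, was at 972, 782, 1009, 1519 and 1734 FPKM against 2475 to 4569.6 (median 3221) (log2 change -1.49, SE 0.21, limma adjusted p = 2.98e-05). The phospholipid transfer protein Pltp was at 14.8 to 30.9 against 47.8 to 93.7 FPKM and fell by 1.53, and the cholesterol exporter Abcg1 fell by 0.91. Those that rose included genes of high-density lipoprotein and of sterol export to bile, Apoa1 (0.49), Apom (1.04), Lcat (0.54), the receptor Scarb1 (0.54) and the transporter pair Abcg5 (0.92) and Abcg8 (1.17). Apob and Mttp, which build very-low-density lipoprotein, did not pass (0.07 and -0.29).

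Of 30 bile acid genes 9 rose and 3 fell. Without sgGFP replicates 1 and 3 the counts were 3 and 3. The uptake carriers Slc10a1 (1835 ± 187 against 955 ± 314 FPKM, log2 change 1.02) and Slco1a1 (3.12), the export pump Abcb11 (0.55) and the oxysterol hydroxylase Cyp7b1 (2.21) rose, whereas the basolateral exporters Abcc3 and Abcc4 fell by 0.72 and 1.28. Cyp7a1, the rate-limiting enzyme of bile acid synthesis, did not pass (444 ± 139 against 420.2 ± 337 FPKM, adjusted p = 0.695). Without Irs1 KO replicate 3 the lower count was 1.

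The genes with the largest changes included many that differ between male and female mouse liver, where pulses of growth hormone keep a male pattern. Among genes with a mean of at least 10 FPKM in the higher group and no overlap between groups, the 12 named genes with the largest increases were Hsd3b5, Mup1, Serpina1e, Mup12, Cyp2c54, Slco1a1, Egfem1, Slc22a28, Mup21, Vmn1r90, Susd4 and Cyp2c37. A further 7 unnamed loci lay among them. Hsd3b5, a steroid dehydrogenase of male liver, was at 181, 208, 229, 141 and 80.2 FPKM against 0 to 3.75 (median 0.593), and all 5 livers exceeded the highest control by over an order of magnitude (log2 change 6.43, SE 0.95, limma adjusted p = 5.5e-05). Slco1a1, an organic anion carrier, was at 614, 674, 510.4, 613 and 451 FPKM against 35.6 to 258 (median 47.9) (log2 change 3.12, SE 0.64, limma adjusted p = 0.00189). The Irs1 KO livers were close to each other, whereas sgLacZ replicate 1 was the highest control. Egfem1 was at 10.6 to 41.6 against 0 to 10.5 FPKM, and its call was lost without Irs1 KO replicate 2 or sgGFP replicate 1 or 3 (adjusted p = 0.0555 to 0.0607).

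The 12 named genes with the largest decreases, with 2 unnamed loci among them, were Aqp7, Slc22a27, Sprr1a, Arhgap22, Cyp2a4, H19, Mmp7, Gpnmb, Ubd, Cfap44, Osbpl3 and Cidec. Osbpl3, a lipid transfer protein, had the smallest p of these at 40.02, 48.7, 20.1, 78.1 and 46.2 FPKM against 310.1 to 558 (median 419) (log2 change -3.26, SE 0.36, limma adjusted p = 1.45e-06). Its Irs1 KO range lay far below the controls. The imprinted noncoding RNA H19 was at 2.67, 0.354, 1.28, 0.993 and 5.81 FPKM against 19.6 to 84.9 (median 25.8) (limma adjusted p = 0.00319). Ubd, a ubiquitin-like protein induced in inflamed liver, was at 0.404 to 5.52 against 16.4 to 60.9 FPKM, and the macrophage glycoprotein Gpnmb at 0.0972 to 1.39 against 8.82 to 47.9. For Mmp7, a matrix protease, sgGFP replicate 3 stood at 144 FPKM and the other controls at 2.98 to 25.8. The calls of Mmp7 and Cfap44 ended without sgGFP replicates 1 and 3 (adjusted p = 0.0921 and 0.0649), as did that of Cyp2c37 among the increases (0.108). In the plot by liver, the separation of each of the 24 genes can be read.

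**Figure D2:**
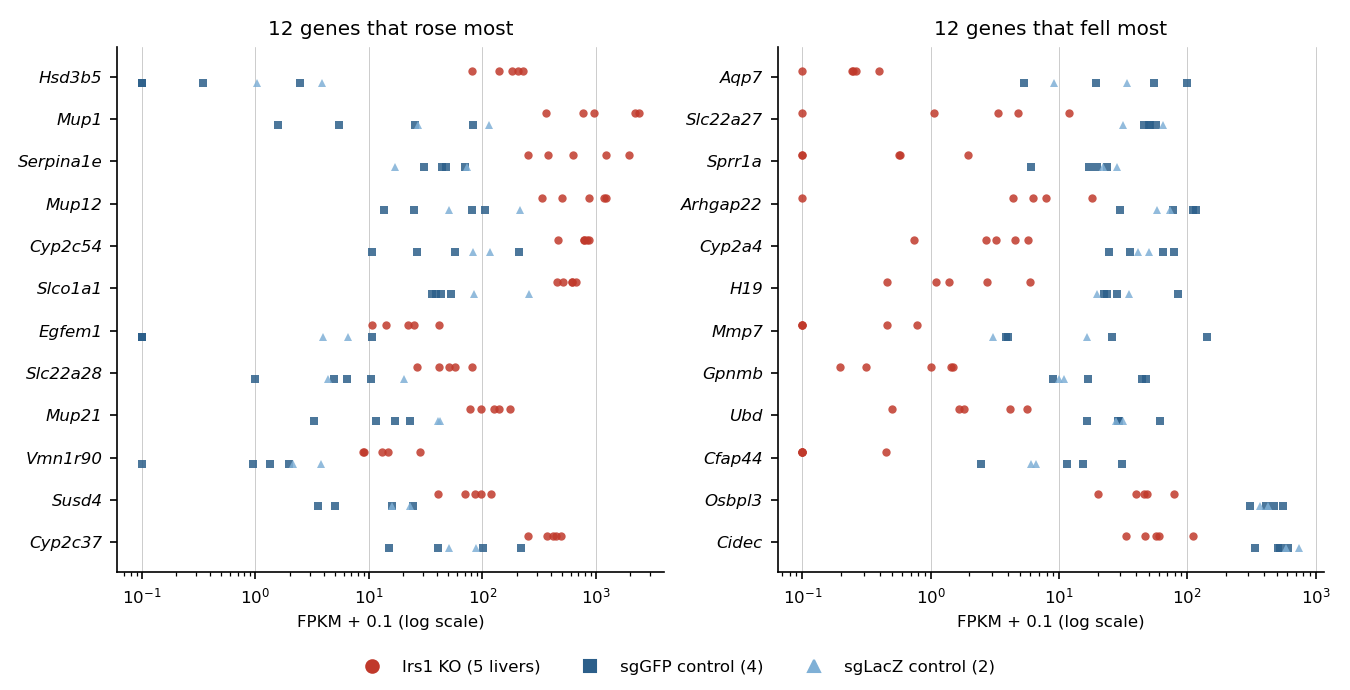
FPKM (log axis, FPKM + 0.1) in each liver for the 12 genes with the largest increases and the 12 with the largest decreases by the naming rule. Circles are Irs1 KO livers, squares sgGFP and triangles sgLacZ livers; the groups do not overlap for any of these genes, as the rule required, and sgGFP replicate 3 is the highest point for Mmp7 (144 FPKM).

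Male-biased genes rose in 15 of 30 cases and none fell, with a median change of 1.53. Without sgGFP replicates 1 and 3, 10 rose. The major urinary proteins, pheromone carriers that male liver secretes, made up part of this group. In the whole Mup family 14 of 20 measured genes rose and none fell (median 2.51), but family members are nearly identical and may share reads, so the split between them is uncertain. Mup1 was at 953, 2225, 2382, 767 and 365 FPKM against 1.46 to 114 (median 25.9), and all Irs1 KO livers were above all controls despite a wide spread among them (log2 change 5.62, SE 1.08, limma adjusted p = 0.00106). Egfr, the receptor of epidermal growth factor, whose liver level is higher in males, was at 571, 905, 1368, 898 and 617 FPKM against 199 to 398 (median 231) (log2 change 1.74, SE 0.31, limma adjusted p = 0.00047). Susd4, Cyp7b1 and Selenbp2 rose by 2.60, 2.21 and 2.05. Male markers that did not pass included Mup20 (16152 ± 7251 against 12041 ± 5818 FPKM), Cyp2d9 (454 ± 137 against 231 ± 142 FPKM) and Elovl3 (168 ± 90.8 against 61.3 ± 42.4 FPKM).

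Female-biased genes went down. Of 22 measured genes 11 fell and none rose, with a median change of -1.24. The count was 8 without sgGFP replicates 1 and 3, and 7 to 11 with 1 liver left out, moving by over 1.5 times without Irs1 KO replicate 1 or 3 or sgGFP replicate 1. Cyp2a4, a testosterone hydroxylase, was at 3.11, 2.59, 0.64, 4.41 and 5.6 FPKM against 24.3 to 78.9 (median 45.8) (log2 change -3.60, SE 0.55, limma adjusted p = 8.96e-05), and shares much sequence with its neighbours. The carrier Slc22a27 was at 11.8, 0, 3.24, 4.68 and 0.971 FPKM against 31.6 to 64.5 (median 50.3) (log2 change -3.79, SE 0.57, limma adjusted p = 7.02e-05). Both were without overlap. Abcd2, a peroxisomal transporter, and the steroid enzyme Cyp17a1 fell by 2.36 and 1.91. Prlr, the prolactin receptor, did not pass against controls (371 ± 132 against 327 ± 191 FPKM). The 7 measured genes of the X inactivation centre and the Y chromosome held 1 call, Uty, which fell (552 ± 44 against 696 ± 49.3 FPKM, log2 change -0.34, and limma adjusted p = 0.0552 under median scaling). Of all 450 measured genes on the X chromosome, 12 rose (2.67%) and 58 fell (12.9%). Uty is Y-linked and was present in all 11 livers.

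Of 24 genes of growth hormone signalling 3 rose and 2 fell, and 1 and 0 without sgGFP replicates 1 and 3. With 1 liver left out the counts were 1 to 4 and 0 to 2, moving by over 1.5 times without Irs1 KO replicates 2 or 3 or sgGFP replicates 1 or 3 (higher), and without any Irs1 KO replicate, sgGFP replicates 1 or 3 or either sgLacZ replicate (lower). The receptor Ghr, the transcription factor Stat5b and the hormone gene Igf1 did not pass (log2 changes 0.49, 0.11 and 0.31). Igfbp2, a growth factor binding protein, was at 456, 474, 344, 403 and 503 FPKM against 70.5 to 202 (median 131), far apart from controls in every liver (log2 change 1.78, SE 0.28, limma adjusted p = 0.000108). The letters TTCNNNGAA, which STAT5 binds, were present in 2726 of 32851 promoters (8.3%), in none of the promoters of 21 male-biased genes found in the table and in 3 of 17 female-biased genes (Fmo2, Prlr and Slc22a26), of which 1 was called lower (Fmo2).

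Genes of the periportal zone, where blood enters the liver lobule, rose. Of 25 genes 12 rose and 1 fell (Apoa4, above), with a median change of 0.566, and 8 and 1 without sgGFP replicates 1 and 3. Without Irs1 KO replicate 5, 2 fell. Against the other 4 knockouts 2 of the 25 were higher and 4 lower. Of 28 pericentral genes, from the zone around the central vein, 6 rose and none fell, but 2 rose and 1 fell without sgGFP replicates 1 and 3, and 3 rose without Irs1 KO replicate 1. Cyp1a2, a pericentral cytochrome, was at 585, 662, 476, 611 and 471 FPKM against 73.9 to 242 (median 195) (log2 change 1.74, SE 0.31, limma adjusted p = 0.000484). The Wnt targets Glul, Axin2 and Lgr5 of that zone did not pass (log2 changes 0.13, -0.16 and 0.72).

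Urea cycle genes, which overlap with the periportal list, rose. Of 18 genes of ammonia handling 9 rose and none fell, with a median change of 0.536, and 6 rose without sgGFP replicates 1 and 3. Cps1, the entry enzyme of the cycle, was at 5392, 6486, 4955, 5507 and 4837 FPKM against 1916 to 3572 (median 2429.9), all 5 livers above all controls (log2 change 1.11, SE 0.18, limma adjusted p = 0.000116). Otc, Ass1 and Asl, the next 3 enzymes, rose by 0.54, 0.59 and 0.60, while Arg1, the last, did not pass (0.11). The mitochondrial ornithine carrier Slc25a15 and the cationic amino acid transporter Slc7a2 rose by 0.53 and 1.09, and the glutaminase Gls2 by 0.99.

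Enzymes that break down amino acids followed. Of 44 genes 18 rose and 4 fell, with a median of 0.383 and 39 of 44 above 0. The counts were 10 and 2 without sgGFP replicates 1 and 3, and the higher count was 11 without sgGFP replicate 3 alone. Hal, which starts histidine breakdown, was at 464, 508, 446, 499 and 456 FPKM against 96.6 to 251 (median 159), without overlap (log2 change 1.62, SE 0.29, limma adjusted p = 0.000451). Hpd and Tat of tyrosine breakdown rose by 1.29 and 1.16, Acmsd and Afmid of tryptophan breakdown by 1.34 and 0.77, and Agxt, which clears glyoxylate, by 1.48. Gpt2, the mitochondrial alanine aminotransferase, fell from 803 to 1043 to 530.1 to 586 FPKM (log2 change -0.68), and Csad of taurine synthesis fell by 1.31. In the methionine and folate cycles 7 of 24 genes rose and 2 fell, and 4 and 2 without sgGFP replicates 1 and 3. Cbs and Cth, which turn homocysteine into cysteine, rose by 1.00 and 1.09, the nicotinamide methyltransferase Nnmt by 1.91, and Mthfd1l of folate metabolism fell by 2.08.

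Secreted plasma proteins of hepatocytes rose selectively. Of 28 complement genes 10 rose and none fell, 8 without sgGFP replicates 1 and 3, and 10 were also higher against the other knockouts. C8b, a subunit of the membrane attack complex, was at 836, 1267, 1373, 860.2 and 893 FPKM against 98.4 to 217 (median 193), with a wide gap (log2 change 2.54, SE 0.35, limma adjusted p = 2.36e-05), while the complement gene C3 did not pass (0.38). Of 29 coagulation genes 15 rose and 4 fell, 11 and 1 without sgGFP replicates 1 and 3. Plasminogen (Plg) was at 1868, 1973, 2333, 1847 and 2106 FPKM against 1019 to 1387 (median 1047) (log2 change 0.89, SE 0.11, limma adjusted p = 1.02e-05), while the factors F7, F10 and F11 rose by 0.91, 0.53 and 0.83. Among those that fell, Plat, F13a1 and Tfpi (-1.64, -1.52 and -0.63) are made largely outside hepatocytes in normal liver. The lower count was 1 to 4 with 1 liver left out and moved by over 1.5 times without Irs1 KO replicate 1 or 4 or sgGFP replicate 2 or 3.

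Of 26 acute phase genes 5 rose and 4 fell, and 3 and 1 without sgGFP replicates 1 and 3. The 3 fibrinogen genes Fga, Fgb and Fgg rose together (by 0.76, 0.77 and 0.77), and Irs1 KO replicate 3 was far above the other livers of its group, with Fgg at 11639 FPKM against 4895 to 6505. Without it 2 acute phase genes were higher. Lcn2, Cd14, Il1rn and Cp fell by 2.37, 1.14, 1.30 and 0.50. The lower count was 1 to 8 with 1 liver left out and moved by over 1.5 times without Irs1 KO replicates 1, 2 or 3 or sgGFP replicates 1, 2 or 3. The amyloid genes Saa1 and Saa2 did not pass (-0.88 and -0.36).

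Hepatocyte identity genes were higher or did not pass, with 1 exception. Of 26 genes 9 rose and 1 fell, the latter being Cyp3a11 (-1.36), whose call was lost without Irs1 KO replicate 1 or 3 or sgGFP replicate 3. Without sgGFP replicates 1 and 3, 8 rose and none fell. Hnf4a, the nuclear receptor that maintains hepatocyte identity, was at 1953, 1894, 2088, 2042 and 2052 FPKM against 1308 to 1655 (median 1376), all livers above all controls (log2 change 0.50, SE 0.08, limma adjusted p = 9.64e-05). The 5 measured Serpina1 genes, which encode alpha-1-antitrypsin and may share reads, all rose, with a median of 1.04. Albumin (Alb) was at 54820.0 ± 11722 against 45811 ± 6557 FPKM and did not pass (log2 change 0.24).

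In the list of unfolded protein and stress responses, to which the chaperones of the endoplasmic reticulum belong, 9 of 29 genes rose and 2 fell, with a median of 0.338 and 25 of 29 above 0. The count was 5 without sgGFP replicates 1 and 3 together, and 5 to 12 with 1 liver left out, moving by over 1.5 times without Irs1 KO replicate 2 or sgGFP replicate 1. Hyou1, a chaperone of the reticulum, was at 759.6, 657, 777, 691 and 618 FPKM against 248 to 448 (median 343), without overlap (log2 change 1.05, SE 0.17, limma adjusted p = 0.000156). Creld2, Sdf2l1, Dnajb11 and Dnajb9 of the same compartment rose by 1.32, 1.10, 0.74 and 0.70, Hspa5 (BiP) by 0.50 and Hsp90b1 by 0.37, with overlap between the groups for Creld2, Dnajb9, Hspa5 and Hsp90b1. Calr, Canx, Pdia6 and Dnajc3, which act there too, did not pass (0.47, 0.12, 0.47 and 0.34). Of the pair that fell 1 was called without Irs1 KO replicates 1, 2 or 5, sgGFP replicates 2 or 3 or sgLacZ replicate 2. The 2 that fell, Atf3 and Fgf21 (-1.98 and -1.19), belong to the integrated stress response, whose factor genes Atf4 and Ddit3 did not pass (0.20 and 0.10).

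The ER stress response element, CCAAT and CCACG with 9 bases between them, was found on either strand in 39 of 32851 promoters (0.119%) and in 8 of the 27 promoters (29.6%) of the list. The 8 genes with it were Hspa5, Hsp90b1, Creld2, Calr, Canx, Pdia6, Dnajc3 and Derl3. Their median change was 0.47, and 3 of them were called higher. Over all 22 measured genes with the element 4 rose and 1 fell. The 250 bases before the start are shown for the 3 called genes, Hspa5 (chr2:34771840-34772089, plus strand), Hsp90b1 (chr10:86705445-86705694, minus strand) and Creld2 (chr15:88819396-88819645, plus strand), since these members rose together. Capitals mark the matches, which lie 65 to 47 bases before the start in Hspa5, 212 to 194 and, reversed, 107 to 89 in Hsp90b1, and, reversed, 126 to 108 in Creld2.
Hspa5: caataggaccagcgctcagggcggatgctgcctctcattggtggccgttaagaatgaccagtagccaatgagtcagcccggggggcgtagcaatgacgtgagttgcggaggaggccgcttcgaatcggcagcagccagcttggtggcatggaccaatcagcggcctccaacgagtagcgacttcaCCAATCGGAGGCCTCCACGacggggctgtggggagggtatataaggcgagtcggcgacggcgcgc
Hsp90b1: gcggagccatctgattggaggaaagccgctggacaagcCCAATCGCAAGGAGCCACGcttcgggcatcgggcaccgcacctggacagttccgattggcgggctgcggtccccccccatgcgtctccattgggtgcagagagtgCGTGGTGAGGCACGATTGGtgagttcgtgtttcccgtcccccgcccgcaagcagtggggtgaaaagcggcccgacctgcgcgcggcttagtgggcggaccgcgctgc
Creld2: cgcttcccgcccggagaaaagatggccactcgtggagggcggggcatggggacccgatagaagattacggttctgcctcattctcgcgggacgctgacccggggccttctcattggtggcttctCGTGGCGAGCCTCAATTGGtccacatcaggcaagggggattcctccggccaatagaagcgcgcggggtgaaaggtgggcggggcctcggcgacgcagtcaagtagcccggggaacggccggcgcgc

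Genes of glutathione conjugation, NRF2 targets and the pentose phosphate pathway fell more often than they rose, 13 of 32 going down and 1 up, with a median of -0.475. Without sgGFP replicates 1 and 3 the counts were 10 and 0. The 1 that rose, Gstp1, was lost without Irs1 KO replicates 1, 2 or 3 or sgGFP replicates 1, 3 or 4. Gstm3, a glutathione transferase, was at 44, 33, 15.8, 42.8 and 23.3 FPKM against 174 to 354 (median 255), all livers far below all controls (log2 change -3.02, SE 0.44, limma adjusted p = 4.62e-05). Gstm1 and Gstm2 fell by 1.06 and 1.43, within a family whose members may share reads. Of the pentose phosphate enzymes, which supply NADPH for fat synthesis, G6pdx, Pgd and Taldo1 fell by 0.84, 0.93 and 0.66. The classical NRF2 targets Nqo1, Srxn1 and Hmox1 fell by 0.91, 0.89 and 0.82 (Hmox1 was not called without sgGFP replicates 1 and 3, adjusted p = 0.0511), whereas Gclc, Gclm and Txnrd1 did not pass (-0.36, 0.06 and -0.07). Of 36 xenobiotic genes 7 rose and 4 fell, with Cyp2c37, Cyp2c50 and Cyp2c54 higher by 2.60, 1.73 and 3.65 and the aldehyde dehydrogenase Aldh3a2 lower (2404 ± 366 against 4742 ± 536 FPKM). Without sgGFP replicates 1 and 3, 2 rose and 6 fell, and the higher count moved by over 1.5 times without sgGFP replicate 1 or 3 and the lower without Irs1 KO replicate 3.

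The share of each list that rose or fell is drawn against the background in the plot of lists.

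**Figure D3:**
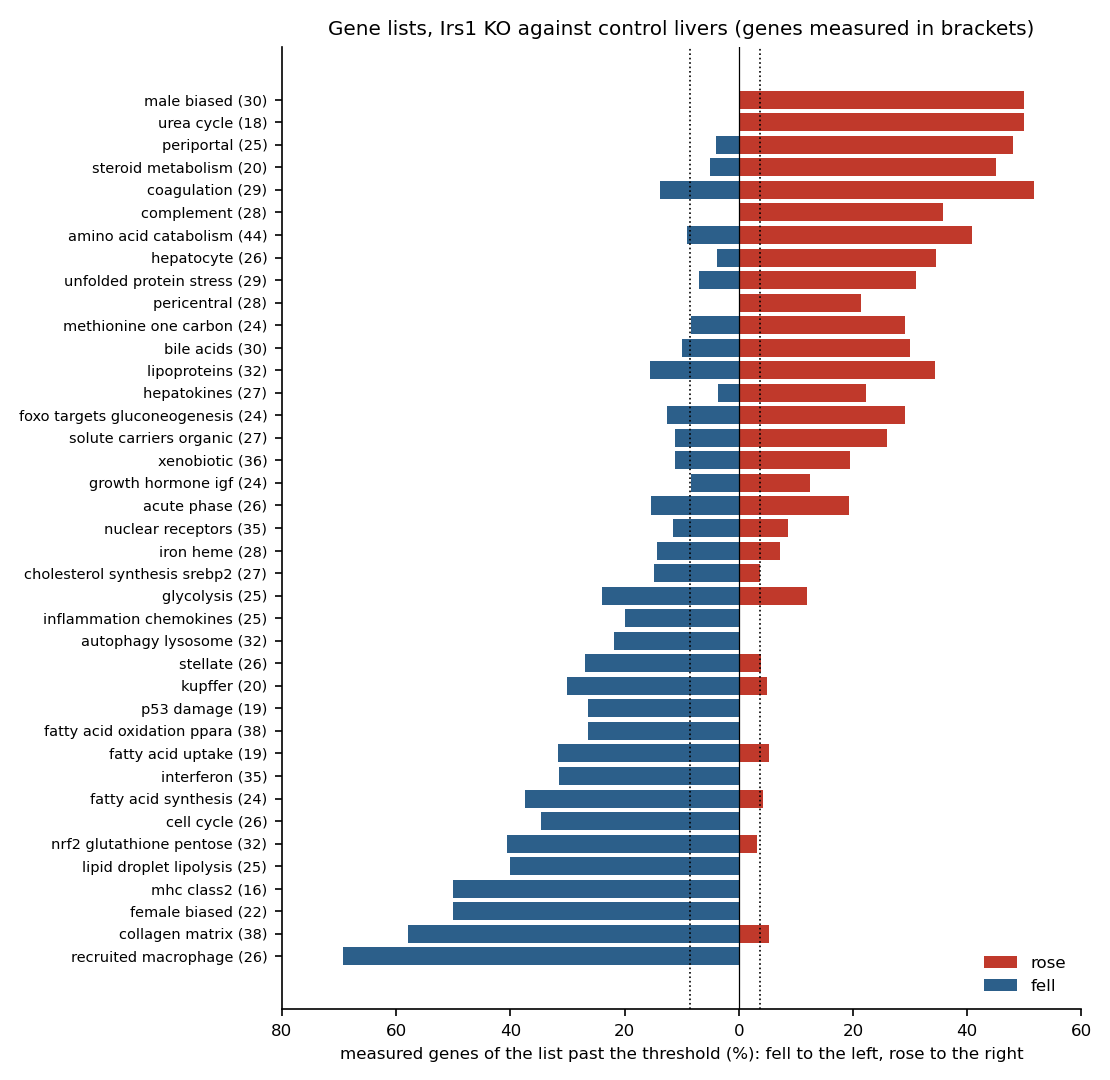
Percent of measured members that rose (to the right) or fell (to the left) in the 39 lists with at least 5 members past the threshold. Dotted lines mark the background over all genes (3.64% higher, 8.6% lower); bars reach past these lines to the right for coagulation (15 of 29 genes) and male-biased genes (15 of 30) and to the left for recruited macrophage (18 of 26) and collagen genes (22 of 38).

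Matrix genes fell, and the count depended on 2 controls. Of 38 genes of collagens and matrix 22 fell and 2 rose, with a median of -1.16. The lower count was 14 without sgGFP replicate 3 and 7 without sgGFP replicates 1 and 3, and the higher count was 2 in each of these fits. The 2 genes that rose were Fn1 and Col18a1. Col1a1, the main chain of fibrillar collagen, was at 2.18, 3.21, 9.68, 5.93 and 3.61 FPKM against 18.5 to 71 (median 25.8) (log2 change -2.64, SE 0.53, limma adjusted p = 0.0015). Col3a1 was at 6.98, 14, 20.5, 22.3 and 19.6 FPKM against 56.5 to 170.4 (median 67.7) (log2 change -2.40, SE 0.44, limma adjusted p = 0.000662). The groups did not overlap for either, and the highest control stood far above the median control. Postn, which stellate cells secrete on activation, was at 62.3, 71, 97.4, 91.7 and 85.1 FPKM against 161 to 253 (median 218), with the controls closer together (log2 change -1.35, SE 0.24, limma adjusted p = 0.000361). Fn1, which hepatocytes also make for plasma, rose from 12655 to 16404 to 19682 to 23764 FPKM, a call that ended under quantile normalization (adjusted p = 0.723).

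Stellate cells make most of this matrix. Of 26 stellate genes 7 fell and 1 rose, and 2 and 0 did so without sgGFP replicates 1 and 3. The lower count was 4 to 8 with 1 liver left out and moved by over 1.5 times without Irs1 KO replicate 3 or 5 or sgGFP replicates 1, 2 or 3. The 1 that rose, Ecm1, was lost without Irs1 KO replicates 1, 3 or 4 or sgGFP replicates 1, 2 or 3. The summed FPKM of 6 stellate markers was 258.3 to 296.2 in Irs1 KO and 301.8 to 481.6 in controls, with 2 of 6 lower (Lrat and Pdgfrb, the latter not called without sgGFP replicates 1 and 3, adjusted p = 0.0605), none higher and none at 0. In bulk liver, fewer cells of a type and less RNA per cell cannot be told apart, here and in the cell type lists that follow. The activation genes Acta2 and Tagln did not pass (-0.28 and -0.28).

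Genes of recruited and lipid-laden macrophages fell. Of 26 genes 18 fell and none rose, with a median of -1.81 and 0 of 26 above 0, but 5 fell without sgGFP replicates 1 and 3 together and 12 to 18 with 1 liver left out. The 6 defining markers summed to 21.18 to 39.01 FPKM in Irs1 KO and to 97.91 to 381.3 in controls, 4 of 6 were lower, and none was at 0 throughout. Anxa5, a phospholipid-binding protein not limited to macrophages, was at 62.1, 69.9, 75.9, 84.3 and 93.6 FPKM against 181 to 330.4 (median 285) (log2 change -1.76, SE 0.26, limma adjusted p = 6.12e-05). The monocyte receptor Ccr2, the integrin Itgax and the lectin Clec7a fell by 1.87, 2.03 and 2.00. Trem2, which marks lipid-associated macrophages, was at 1.93 ± 1.79 against 11 ± 10.9 FPKM and did not pass (log2 change -1.91, SE 0.78, adjusted p = 0.11).

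More resident macrophage genes were lower than higher, but their identity markers did not pass. Of 20 Kupffer cell genes 6 fell and 1 rose (Cd163, 1.42), with a median change of -0.648 and 4 of 20 above 0. The identity markers Clec4f, Vsig4 and Timd4 did not pass (0.03, -0.27 and 0.35). The 6 Kupffer markers summed to 421.4 to 755.8 FPKM against 489.6 to 787.1, with 0 called. The lower count was 2 to 8 with 1 liver left out, moving by over 1.5 times without Irs1 KO replicate 1 or 2 or sgGFP replicate 3, and was 3 without sgGFP replicates 1 and 3. The call of Cd163 was lost without Irs1 KO replicates 1 to 4 or sgGFP replicate 1 or 3. Genes of antigen presentation by class II molecules fell in 8 of 16 cases (median -1.22), and in 4 without sgGFP replicates 1 and 3. Their master regulator Ciita was at 18.5, 24.9, 19.2, 19.8 and 20.9 FPKM against 32.1 to 105 (median 65.1) (log2 change -1.58, SE 0.30, limma adjusted p = 0.00104), and H2-Ab1 and Cd74 fell by 1.73 and 1.64. Of 25 genes of inflammation 5 fell, among them Ccl5 and Vcam1 (-2.29 and -1.44), while Tnf and Il1b did not pass (-0.02 and -0.53). That count was 2 without sgGFP replicates 1 and 3, and 3 to 5 with 1 liver left out, moving by over 1.5 times without Irs1 KO replicates 1 or 3 or sgGFP replicates 1 or 3. Of 35 interferon-induced genes 11 fell and none rose, but 3 fell without sgGFP replicates 1 and 3, and the count was 7 to 12 with 1 liver left out, moving by over 1.5 times without Irs1 KO replicate 2 or sgGFP replicate 3.

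Of 27 endothelial genes 2 fell, or 1 without sgGFP replicates 1 and 3. The median change was -0.0719, with 10 of 27 above 0. Those that fell were Lyve1 (19.6 ± 6.14 against 47.8 ± 13.8 FPKM, log2 change -1.24) and Pecam1 (-0.51), with marker sums of 336.5 to 489.5 against 427.3 to 598.7 FPKM. The call of Pecam1 ended without Irs1 KO replicate 3 (adjusted p = 0.0901) or sgGFP replicate 3 (0.0508). Of 17 cholangiocyte genes none was above 0, and the median change was -1.1. In limma 9 of the 17 had an unadjusted p under 0.05 and 2 passed, both lower. Their FPKM summed to 370.7 to 748.8 in Irs1 KO and to 892.4 to 4085 in controls, without overlap. With 1 liver left out 1 to 4 were lower, moving by over 1.5 times without Irs1 KO replicate 1 or sgGFP replicate 1, 3 or 4. The 2 that fell were Spp1 and Cd24a (-2.06 and -1.57), and neither was called without sgGFP replicates 1 and 3 (adjusted p = 0.0957 and 0.175). Sums of 6 biliary markers alone were 78.91 to 132.4 FPKM against 109.5 to 253.9. Neutrophil marker sums were 29.54 to 56.87 FPKM against 66.73 to 230.4, with 0 of 3 called. The part of these cell types in the changes of matrix, class II, interferon and chemokine genes was not tested.

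Cell cycle genes fell. Of 26 cell cycle genes 9 fell and none rose (median -0.863), but 2 fell without sgGFP replicates 1 and 3, and 3 to 10 with 1 liver left out, moving by over 1.5 times without Irs1 KO replicates 1, 2 or 3 or sgGFP replicate 3. Top2a, a topoisomerase of dividing cells, was at 10.6, 12.5, 9.45, 9.34 and 24.8 FPKM against 28.6 to 95.7 (median 39.5) (log2 change -1.75, SE 0.49, limma adjusted p = 0.0189). Its call ended without sgGFP replicate 3 (adjusted p = 0.0549) and without sgGFP replicates 1 and 3 (0.118). Ccnd1, which opens the cycle, was at 77.3, 43.9, 48.4, 69.5 and 91.3 FPKM against 106 to 204 (median 137), and the groups did not overlap (log2 change -1.11, SE 0.29, limma adjusted p = 0.0119, and 0.0657 without sgGFP replicates 1 and 3). Of 19 p53 targets and related genes 5 fell, among them Cdkn1a, which stops the cycle, at 6.79 ± 2.76 against 39.5 ± 22.2 FPKM (log2 change -2.30, a call that ended without sgGFP replicates 1 and 3, adjusted p = 0.0509). Without sgGFP replicates 1 and 3, 2 of them fell. Mki67 fell by 1.49.

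How these lists lay in each liver is shown in the plot of list levels. For female-biased, lipid droplet and urea cycle genes the Irs1 KO livers did not overlap with the controls, whereas for male-biased genes sgLacZ replicate 1 lay above Irs1 KO replicate 5. In matrix and macrophage genes sgGFP replicates 1 and 3 were set off from the other controls.

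**Figure D4:**
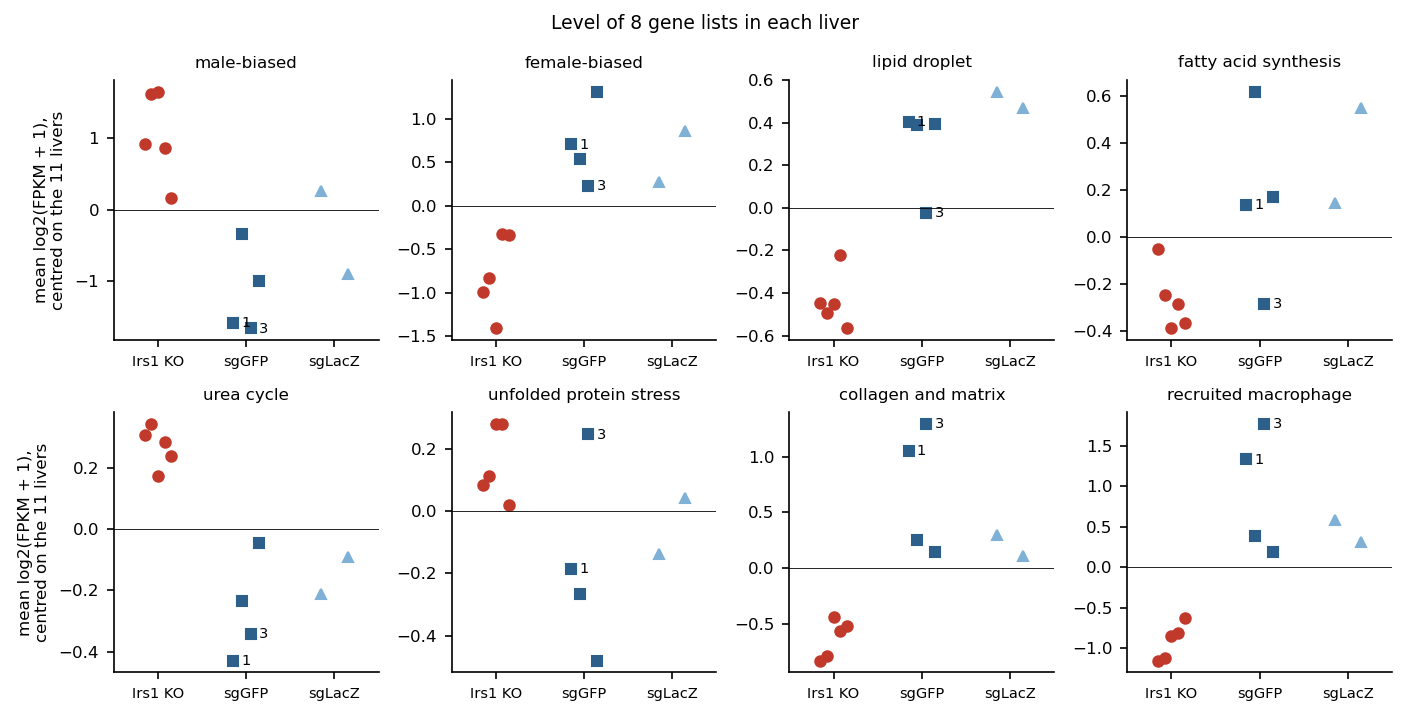
Level of 8 lists in each of the 11 livers (mean of log2(FPKM + 1) over the members, centred on the 11 livers). Each point is a liver, grouped as Irs1 KO, sgGFP and sgLacZ, with sgGFP replicates 1 and 3 numbered; these 2 lie highest for collagen and recruited macrophage genes.

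Several housekeeping programs showed no more calls than the background. None of 21 clock genes and none of 9 genes of the mitochondrial genome passed in limma (2 and 1 at an unadjusted p under 0.05). Of 72 nuclear genes of oxidative phosphorylation 1 rose (Cyc1, 142 ± 7.58 against 109 ± 23.8 FPKM) with a median change of 0.0124, and of 77 ribosomal protein genes 1 fell (Rps10, 59.9 ± 8.29 against 88.3 ± 17.1 FPKM) with a median of -0.0638. Neither call held without sgGFP replicates 1 and 3 (adjusted p = 0.347 and 0.163). The core clock genes Arntl and Per2 did not pass (log2 changes -0.00 and 0.11).

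Set against the mean of the other 4 knockouts, which also received a guide against a mouse gene and the same diet, 396 genes were higher (2.35%) and 792 lower (4.71%). This reference shares the Irs1 KO livers with the comparison above but no control liver. Its median change over all genes was -0.0639. With Bcl6 KO left out of the reference the counts were 228 and 516, and without Irs1 KO replicate 1, 2 or 3 they were 215 and 391, 211 and 398, and 262 and 518. The genes with the smallest p among the higher were C8b, Nfix, Lrrc16a, Avpr1a, Cyp2c44 and Egfr, and among the lower Cd36, Agpat9, Cyp2a22, Aldh1a7, Fam126a and Rdh9. Nfix, a nuclear factor I transcription factor, was at 2232, 1936, 1775, 2089 and 1918 FPKM in Irs1 KO and averaged 926, 1133, 1290.2 and 1198 in Bcl6, Smyd2, Srebf1 and Tbx3 KO (log2 change 0.83, SE 0.11, limma adjusted p = 6.85e-06). Every Irs1 KO liver exceeded each of those means and the highest control. Avpr1a, the liver receptor of vasopressin, was at 12.8, 11.2, 22.2, 14.9 and 12.2 FPKM, against means of 1.64, 6.47, 3.6 and 5.58 (log2 change 1.69, SE 0.24, limma adjusted p = 2.52e-05). Cyp2c44, an epoxygenase, and Lrrc16a, a regulator of actin capping, were higher by 1.14 and 1.24.

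For Cd36 the means of the other knockouts were 4178, 2752, 2488 and 1996 FPKM, all above every Irs1 KO liver (log2 change -1.45, SE 0.15, limma adjusted p = 7.49e-08). Agpat9 averaged 222, 162, 187 and 173 FPKM there (log2 change -1.61, SE 0.17, limma adjusted p = 1.88e-07). Fam126a, which helps to place a lipid kinase at the plasma membrane, was at 41, 43.9, 52, 72.6 and 57.8 FPKM in Irs1 KO against means of 217, 121, 167 and 89.9 (log2 change -1.38, SE 0.16, limma adjusted p = 1.04e-06). The retinoid enzymes Aldh1a7 and Rdh9 were lower (log2 changes -1.02 and -0.99), as was Cyp2a22 (-2.73).

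The lists were counted against the second reference as well. Lipid droplet genes were lower in 10 of 25 cases against the other knockouts and fatty acid oxidation genes in 13 of 38. Male-biased genes were higher in 21 of 30 cases and female-biased genes lower in 18 of 22, but when Bcl6 KO was left out of the reference the counts were 8 and 8. In Bcl6 KO, Cyp2a4 averaged 2617 FPKM, against 12.1, 28.4 and 10.1 in the other 3. Among the other lists, higher genes numbered 2 of 25 in the periportal, 3 of 18 in the urea cycle, 5 of 44 in the amino acid breakdown, 3 of 29 in the coagulation, 3 of 26 in the hepatocyte and 2 of 29 in the unfolded protein list. Lower genes numbered 6 of 38 in the collagen, 9 of 26 in the recruited macrophage, 3 of 24 in the fatty acid synthesis, 2 of 26 in the cell cycle and 6 of 32 in the NRF2 and glutathione list. For Cps1 the means of the other knockouts were 4252, 3504, 3240.5 and 5458 FPKM, with Tbx3 KO at the level of the Irs1 KO livers (change 0.45, limma adjusted p = 0.0507). The difference between the 2 references was not itself tested.

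**Figure D5:**
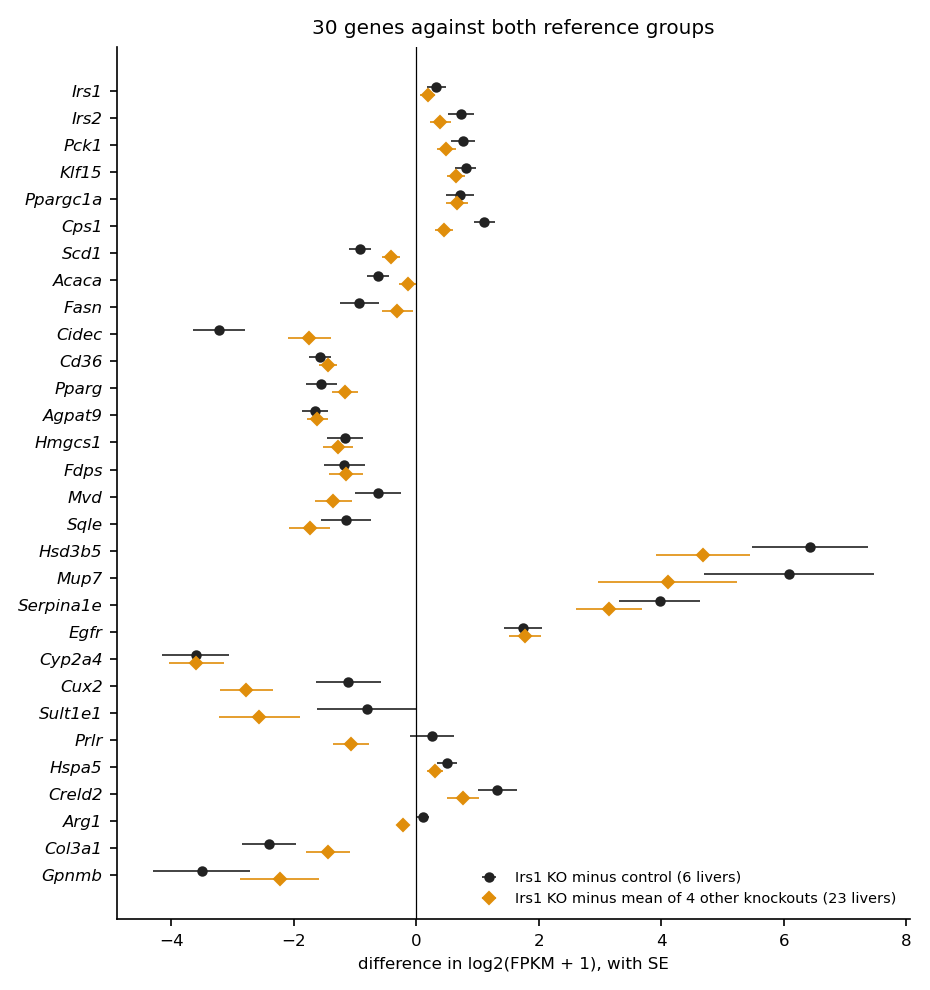
Log2 change with its SE for 30 genes, Irs1 KO minus control and Irs1 KO minus the mean of the 4 other knockouts (23 livers). Hsd3b5 lies at 6.43 against controls and at 4.68 against the other knockouts, and Cps1 at 1.11 and 0.45.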

How the data were processed

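RNA was extracted from whole liver with TRIzol and column purification and sequenced as stranded total RNA, per the labels' protocols. The authors deposited 1 table of FPKM values for all livers, and per the submitters' processing notes they used featureCounts 1.6.4 and the builds mm10 and GRCh38, whose roles are not stated. The labels used here state no aligner, annotation or strand setting, so overlapping and antisense genes, and members of near-identical families (Mup, Serpina1, Cyp2c, Gstm), may share reads.

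All 34 livers entered 1 limma 3.58.1 fit (R 4.3.3) of log2(FPKM + 1) with 6 levels, sgGFP and sgLacZ pooled as control, and an intensity trend. Genes with 1 FPKM or more in at least 5 livers were tested (19295), and p-values were adjusted over them by the Benjamini-Hochberg method with a threshold of 0.05. The procedure was tested on simulated data. Counts are over the 16818 genes included. Fragment numbers were estimated from low FPKM values and were not counted.

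The comparison, the 54 gene lists and the tests were chosen with earlier results of these data known. Named were insulin receptor genes, the 12 largest changes each way without overlap and at 10 FPKM or more in the higher group, up to 4 members of each list by smallest p, 6 genes each way against the other knockouts, and the neighbours of Irs1. Further genes were named for their role after their values were seen. Some genes chosen by these rules are not reported here, though they remain in the counts of genes. Alternatives varied pseudocount, filter, scaling, samples, trend, replicate block, control guide and single livers. Leaving out sgGFP replicates 1 and 3, or Bcl6 KO, was chosen after seeing the data.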

Additional observations from a re-analysis of the deposited data

Results flagged for a closer look

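In 39 of 404 groups of livers, over 202 named genes, the highest or lowest liver stood far from the rest of its group. Chance gives about 1 in 20 for independent, normally distributed values. FPKM values are skewed and some of these genes vary together, so that rate is only a rough guide and the excess was not tested. Irs1 KO replicate 2 stood apart in FPKM for Cfap44 (0.347, the others 0 to 0) and Eif2s3y (low at 214, the others 797 to 1003). Irs1 KO replicate 3 stood apart in FPKM for 12 genes. These included Akt1 (177, the others 120 to 132), Cyp2c54 (low at 464, the others 782 to 861), Enho (7.04, the others 2.37 to 3.05), Etnppl (low at 93.2, the others 183 to 209), Fgb (10021, the others 4373 to 5400) and Fgg (11639, the others 4895 to 6505). The others were Fn1 (23764, the others 19682 to 20797), H2-Aa (low at 10.3, the others 18.4 to 20.4), Hpd (low at 4941, the others 6246 to 6706), Itih3 (5987, the others 2340 to 2990), Lrp1 (486, the others 394 to 412) and Vtn (1819, the others 1291 to 1373). Irs1 KO replicate 4 stood apart in FPKM for Igfbp3 (88.1, the others 51.3 to 59.2) and ND6 (low at 30734, the others 36990 to 38014). Irs1 KO replicate 5 stood apart in FPKM for Hexa (168, the others 91.4 to 112), Hmox1 (30, the others 20.8 to 23), Rps10 (74.4, the others 53.8 to 58.7), Sprr1a (1.87, the others 0 to 0.479) and Top2a (24.8, the others 9.34 to 12.5). sgGFP control replicate 1 stood apart in FPKM for H19 (84.9, the others 19.6 to 35) and Hexa (256, the others 183 to 207). sgGFP control replicate 3 stood apart in FPKM for 8 genes. These included C1qb (130, the others 55.1 to 78.7), Cd36 (low at 2237, the others 2905 to 3270), Hsd17b6 (375, the others 83.3 to 187) and Mmp7 (144, the others 2.98 to 25.8). The others were Oasl2 (217, the others 63.5 to 97.4), Tnfaip3 (64.9, the others 28.4 to 39.4), Top2a (95.7, the others 28.6 to 50.3) and Ubd (60.9, the others 16.4 to 31.7). sgGFP control replicate 4 stood apart in FPKM for Hpd (4621, the others 2012 to 2280), Plg (1387, the others 1019 to 1053) and Slc17a3 (140, the others 105 to 115). sgLacZ control replicate 1 stood apart in FPKM for Egfr (398, the others 199 to 266), Klf15 (low at 434, the others 534 to 576), Slco1a1 (258, the others 35.6 to 83.7) and Stat5a (109, the others 60.4 to 77.9). sgLacZ control replicate 2 stood apart in FPKM for C8b (low at 98.4, the others 182 to 217).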

How the results depend on the processing

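Against controls, higher and lower counts were 128 and 255 with sgLacZ livers alone as the control and 354 and 637 without sgGFP replicates 1 and 3, where fewer livers were tested, and 902 genes were lower after quantile normalization, for which the cause was not tested. With 1 liver left out they were 414 to 595 and 974 to 1545. Against the other knockouts they were 228 and 516 without Bcl6 KO, and 211 to 449 and 391 to 975 with 1 liver left out. Between sgLacZ and sgGFP, 0 genes passed with only these groups fitted, and 0 to 6 with 1 liver left out. Irs1 KO and control livers with the same number did not deviate together (correlations -0.0304 to 0.0444). Whether the numbers pair livers in part of the genes was not tested. With a replicate block the counts were 685 and 1753 against controls, 351 and 701 against the other knockouts and 1 between the control guides. Of the 202 named genes, none called as reported or in the alternative changed sign between the 2 fits. Sign changes of genes called in neither fit were not counted. Of 2222 values with 1 liver left out, 87 lost the call, as did 35 genes without sgGFP replicates 1 and 3, 10 with sgGFP alone, 9 after quantile normalization, 8 with only the 2 groups fitted, 7 after median scaling, 2 with the block and 0 with a pseudocount of 0.1. Shallow libraries limit genes of a few FPKM.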

Other observations

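Subunits of the vacuolar ATPase, the proton pump of lysosomes, fell in 9 of 20 cases, with 1 higher (Atp6v1c2) and a median change of -0.36. Of 13 lysosomal cathepsins, the proteases of that compartment, 5 fell (Ctsa, Ctsb, Ctsd, Ctsk and Ctss) and none rose, with a median of -0.32. Ctsd was at 133, 144, 159, 160.1 and 153 FPKM in Irs1 KO against 227 to 295 (median 261) in controls, without overlap (log2 change -0.79, SE 0.18, limma adjusted p = 0.00436). Of 10 annexins, proteins that bind membrane phospholipids, 4 fell (Anxa2, Anxa4, Anxa5 and Anxa7). Of 32 genes of autophagy and lysosome 7 fell, and 7 did so without sgGFP replicates 1 and 3.

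In steroid metabolism 9 of 20 genes rose and 1 fell, 4 and 1 without sgGFP replicates 1 and 3 and 4 higher without sgGFP replicate 3 alone. Srd5a1, a steroid reductase, was at 116, 127, 113, 118 and 104 FPKM against 32.3 to 72.7 (median 56.1) (log2 change 1.11, SE 0.21, limma adjusted p = 0.000867). Among immediate early genes Jun was at 20.3, 25.5, 26.5, 26.6 and 20.5 FPKM against 52.9 to 90.8 (median 67.6), with all Irs1 KO livers below all controls (log2 change -1.47, SE 0.27, limma adjusted p = 0.000695). Of 28 genes of iron and heme 2 rose and 4 fell, among them Hfe2, an activator of hepcidin expression (139 ± 14.4 against 228 ± 30.2 FPKM), and Tfr2, a transferrin receptor, which was higher (1198 ± 121 against 826 ± 37.4 FPKM). Among secreted hepatokines 6 of 27 rose and 1 fell (Fgf21), and 4 and 0 without sgGFP replicates 1 and 3. The higher count was 3 to 6 with 1 liver left out and moved by over 1.5 times without Irs1 KO replicate 5, and the lower count was 0 without Irs1 KO replicate 1, 2 or 5, sgGFP replicate 2 or 3 or sgLacZ replicate 2. Among those that rose was Ahsg (fetuin A) at 17789.5 ± 1156 against 9866 ± 1739.9 FPKM, a call that ended under quantile normalization (adjusted p = 0.0755).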
